A study of Bos taurus with 18 samples.

Results

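RNA sequencing libraries rich in liver transcripts were set against libraries rich in skeletal muscle transcripts, 3 against 3, within a bovine fibroblast series. The members are 6 of the 18 libraries of the series. They were chosen by transcripts and not by stage labels: the liver-rich set holds the libraries in which ALB and FGB are abundant, whatever their label, and the muscle-rich set holds those in which MYH1 is abundant. The liver-rich set is made up of the libraries labelled Holstein-like senescent replicate 2, Holstein-like senescent replicate 3 and Holstein-like immortalized replicate 1. The muscle-rich set is made up of the libraries labelled Holstein-like primary replicates 1, 2 and 3. Because the same transcripts define the sets and run through all that follows, the values are given as a description, with no test, and no value here stands for an effect of stage.

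By the labels, the series holds fibroblasts, cells of connective tissue, of 2 lines named after Holstein and Simmental cattle and followed through long culture, with 3 stages of 3 libraries per line. The labels give the cell line as PBF-15 for the Holstein-like primary stage, Sn-BF-15 for the senescent stage and HUN-BF-15 for the immortalized line, and call the 3 libraries of each stage biological replicates without naming separate cultures. The labels give no treatment, allele, age or tissue of origin for the Holstein-like stages. The columns of the table name the primary libraries BEF and the other 2 stages BF-15-P9 and BF-15-P23, and the labels do not say what these letters stand for. Every Holstein-like column name also ends in Rerun, and no Simmental-like column name does. The column names of the Simmental-like senescent libraries, which serve only for reference here, hold the words MultiXray and Ctrl. In bulk libraries like these, fewer cells of a type and less RNA per cell cannot be told apart.

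Hepatocytes, the main cells of the liver, make most plasma proteins, bile acids and urea, keep blood glucose up between meals and break down drugs and hormones. Skeletal muscle fibres are packed with sarcomeres, in which myosin pulls on thin filaments of actin when calcium is let out of the sarcoplasmic reticulum, and they burn glycogen and fatty acids for it. Several enzymes exist in separate liver and muscle forms that are encoded by different genes, and fibroblasts in culture are known instead for collagens, vimentin and genes of dividing cells.

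Levels are CPM, the reads counted for a gene per 1000000 counted in its library after TMM scaling of the 6 libraries, which is not a level per gene length, so levels are compared between libraries and not between genes. Values are given in the order senescent-labelled replicate 2, senescent-labelled replicate 3 and immortalized-labelled replicate 1 for the liver-rich set, and primary-labelled replicates 1, 2 and 3 for the muscle-rich set. The liver-rich libraries held 12909618, 13330382 and 11924046 counts and the muscle-rich ones 1459635, 1466911 and 1424478. A gene was taken as measurable when all 3 libraries of at least 1 set reached 7.72 CPM, which is 10 counts in the shallowest library. A count of 0 over a whole set allows a level of up to 3 counts over that set, which is 0.0710 CPM for the liver-rich and 0.760 CPM for the muscle-rich set. These limits cover counting error only. Among the muscle-rich libraries the differences were close to counting noise, with a mean chi-square per gene of 1.20 to 1.22 and 7.03% to 7.26% of genes past the 5% point. The liver-rich libraries differed from each other far more, with a mean chi-square per gene of 71.2 to 197. Mean ± SD is over n = 3 libraries, and in the muscle-rich set that spread may be technical.

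The defining markers separated the sets by whole orders of magnitude. ALB, the gene of serum albumin, stood at 74013, 30756 and 40610.4 CPM in the liver-rich libraries and 0, 0.75 and 0 CPM in the muscle-rich ones, where 1 read was counted over the set. FGB, the fibrinogen beta chain, stood at 26206, 41062 and 49284 CPM against 0 counts in all 3 muscle-rich libraries, and was at least 51098-fold higher. TTR, the carrier of thyroid hormone and retinol-binding protein in blood, stood at 1910.0, 748 and 1377 CPM against 0 counts, at least 1769-fold higher. All 3 of these genes were abundant in each liver-rich library, although the senescent-labelled replicate 2 had the most ALB and the least FGB. MYH1, the myosin heavy chain of fast fibres, stood at 0.0705, 0.127 and 0.406 CPM in the liver-rich and 70139.6, 69171 and 68719.8 CPM in the muscle-rich libraries. CKM, the muscle creatine kinase, stood at 0.141, 0 and 0.162 and 12495, 12644 and 12479.9 CPM. No muscle-rich library came near a liver-rich one in any of these 5 genes, and the 3 muscle-rich libraries stayed within a few percent of each other in MYH1 and CKM.

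Summed gene sets ran the same way, but they are not separate from the markers. The liver set holds ALB, FGB and TTR, and the skeletal muscle set holds MYH1 and CKM. A set of 12 liver genes took 19.2%, 19.7% and 19.7% of all counts in the liver-rich libraries and at most 0.000137% in the muscle-rich ones. Among the other libraries the next highest share of these liver genes was 0.471%, in the library labelled Holstein-like senescent replicate 1. A set of 12 skeletal muscle genes took 25.3% of counts in each of the 3 muscle-rich libraries and at most 0.000528% in the liver-rich ones, and the next highest share, 1.58%, was again in senescent-labelled replicate 1. A set of cultured fibroblast genes took 0.298% to 0.616% of counts in the liver-rich libraries, 0.0490% to 0.0515% in the muscle-rich libraries and 3.89% to 5.97% in the 9 Simmental-like libraries. In the liver-rich libraries most of this share was FN1, fibronectin, with 0.274%, 0.579% and 0.320%, and without it the other 8 genes took 0.0236%, 0.0364% and 0.0738%, against 0.0432% to 0.0454% in the muscle-rich libraries. The label fibroblast therefore goes against the leading transcripts of all 6 libraries. Kidney and red blood cell sets had 0 counts in the muscle-rich libraries and at most 0.000488% and 0.00117% in the liver-rich ones.

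**Figure D1:**
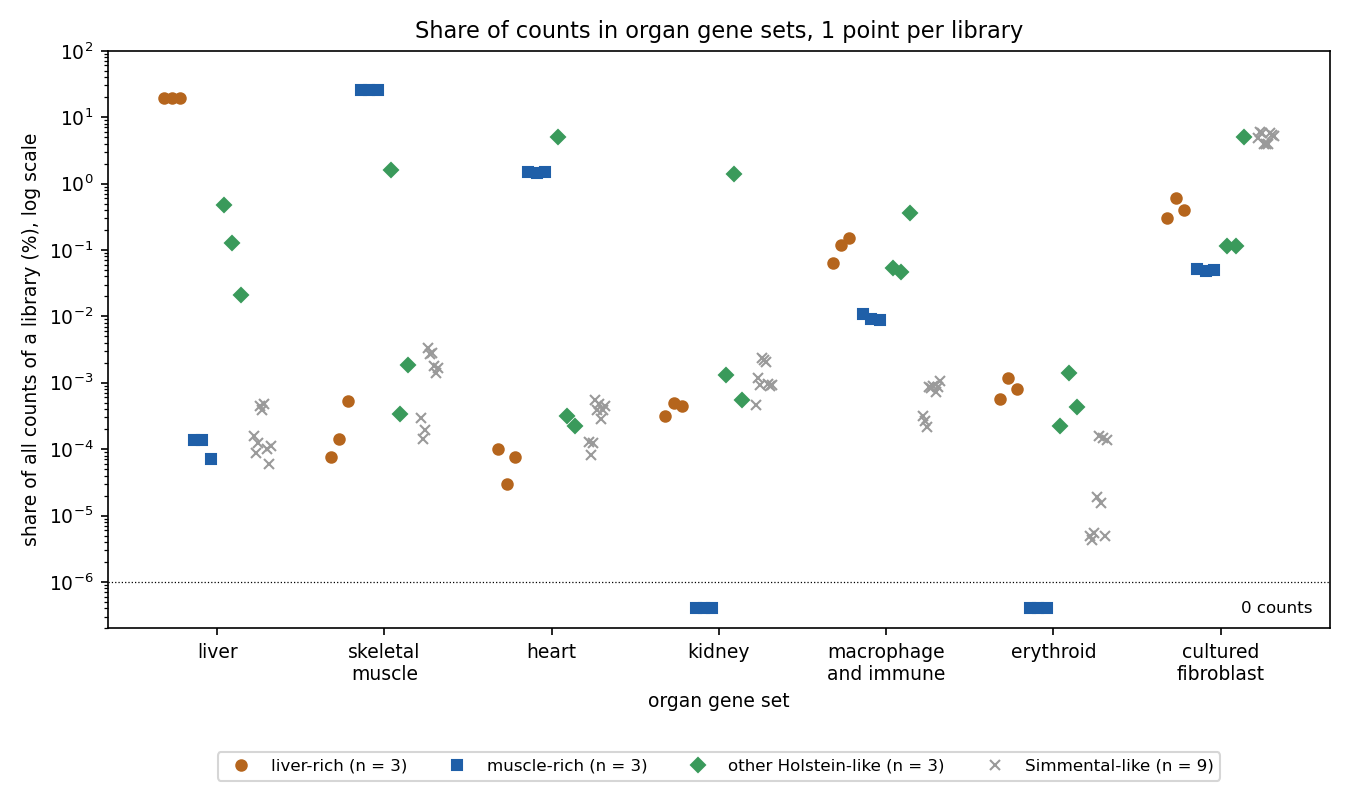
Share of all counts of a library taken by each organ gene set (vertical axis, percent, log scale; 0 counts below the dotted line), with 1 point per library. The 3 liver-rich libraries lie at 19.2% to 19.7% for liver and the 3 muscle-rich libraries at 25.3% for skeletal muscle, and both lie below the Simmental-like libraries for cultured fibroblast genes.

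A set of heart genes took 1.44% to 1.47% of counts in the muscle-rich libraries. Nearly all of it was MYH7, the myosin heavy chain shared by heart and slow skeletal fibres, at 16274, 15863 and 16158 CPM on the larger of the 2 rows with this symbol. Other heart markers of that set were at or near 0: TNNT2 and MYBPC3 had 0 counts over the muscle-rich set and TNNI3 had 3. In senescent-labelled replicate 1, outside both sets, the heart genes took 4.99% of counts.

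Of the 24596 genes of the table, 8229 were measurable. With sets that do not overlap and a ratio of mean CPM of at least 4, 1922 genes were higher in the liver-rich libraries (23.4% of measurable genes) and 1032 were higher in the muscle-rich libraries (12.5%), and 5275 were neither. At any ratio, the sets did not overlap for 6242 genes (75.9%). Since the contrast itself chose the libraries, these shares are given as the background for the counts below. A gene that was measurable through 1 set and had 0 counts in the other always met the call. Counts of list members that passed through their high set alone are therefore largely fixed by the filter. Ratios of at least 100 were reached by 344 genes in the liver-rich and 260 in the muscle-rich direction. Of the genes higher in the liver-rich set, 418 had 0 counts in the muscle-rich set, and 49 genes had the reverse. These numbers are not at the same limit, since 0 counts allows 0.760 CPM in the shallower muscle-rich set and 0.0710 CPM in the liver-rich set. The median log2 difference of measurable genes (liver-rich over muscle-rich) was 0.29 with TMM scaling, and it was -0.04 with upper-quartile scaling and 0.58 with total counts. The liver-rich share of the calls was 65.1% with TMM, 55.1% with upper-quartile scaling and 72.0% with total counts. All log2 differences are for liver-rich over muscle-rich, with the mean of the lower set raised to 3 counts over that set where it was below.

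**Figure D2:**
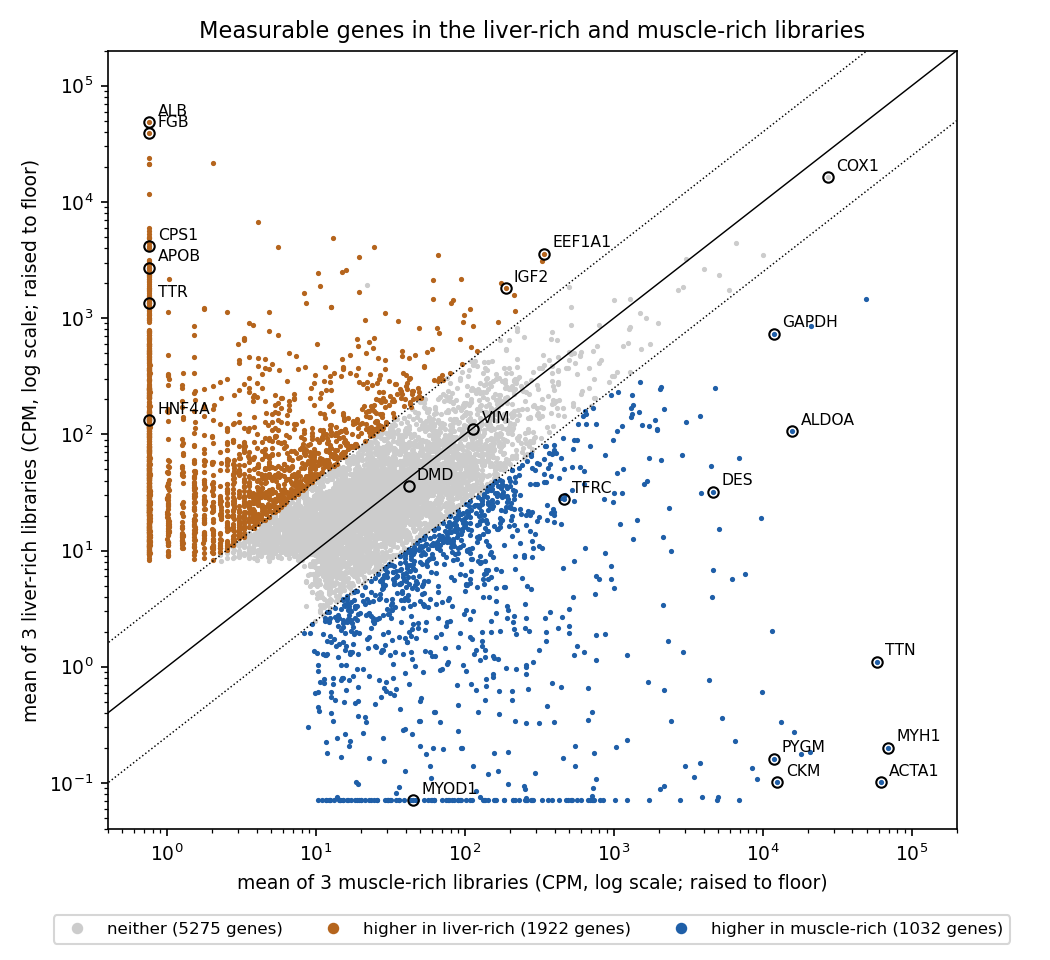
Mean CPM of each of the 8229 measurable genes in the 3 muscle-rich libraries (horizontal axis, log scale) and in the 3 liver-rich libraries (vertical axis, log scale), with means raised to the floor of 3 counts over a set. The dotted lines mark a ratio of 4, orange points are the 1922 genes higher in the liver-rich set and blue points the 1032 genes higher in the muscle-rich set, and COX1, VIM and DMD lie between the lines.

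A small number of genes took much of each library. The 50 genes with most counts held 37.4% to 41.2% of counts in the liver-rich and 54.9% to 55.0% in the muscle-rich libraries. In the liver-rich set the leading genes were ALB, the 3 fibrinogen chains FGA, FGB and FGG, complement C3, transferrin (TF), the mitochondrial cytochrome oxidase gene COX1 and haptoglobin (HP). ALB took 8.13%, 3.64% and 4.19% of counts in the 3 liver-rich libraries, and C3 took 1.60%, 3.01% and 2.53%. In the muscle-rich set MYH1, skeletal actin (ACTA1), titin (TTN), the calcium pump ATP2A1 and nebulin (NEB) led, together with COX1 and 2 genes without a name. ACTA1 took 5.50%, 5.67% and 5.62% of counts there and TTN, the spring protein of the sarcomere, took 5.36%, 5.25% and 5.27%.

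Genes of blood clotting were among the distant groups on the liver side. Of 24 coagulation and fibrinolysis genes, 23 were in the table and measurable, and 22 were higher in the liver-rich libraries and none in the muscle-rich ones, with a median log2 difference of 9.78 beside 0.29 over all measurable genes. FGA and FGG, which form fibrinogen with FGB, stood at 12959.8, 31329 and 27738 CPM and at 13164, 23309.9 and 26864 CPM in the liver-rich libraries, against 0 counts in the muscle-rich set. Plasminogen (PLG), the precursor of the enzyme that dissolves clots, was at 4586, 5943 and 6176 CPM and at 0 counts, at least 7323-fold higher. Prothrombin (F2) was at 2599.8, 2681 and 3279 CPM against 0, 0.75 and 0.772 CPM. F5, the cofactor of prothrombin activation, was the exception among the 23, with 25.4, 40.9 and 23.8 CPM in the liver-rich and 11.4, 15.8 and 17.0 CPM in the muscle-rich libraries, non-overlapping but at a ratio of 2.04.

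Of 23 carrier and plasma protein genes, 21 were in the table, 20 were measurable and all of these 20 were higher in the liver-rich libraries, with a median log2 difference of 10.97. TF, the iron carrier of plasma, stood at 32514, 12511 and 18240.1 CPM against 0 counts, at least 27736-fold higher. Hemopexin (HPX), which binds free heme, was at 4713, 6241 and 6907 CPM and AMBP, the precursor of alpha-1-microglobulin and bikunin, was at 6328, 2939 and 5727 CPM, against 0 and 1 counts over the muscle-rich set. ITIH1 and ITIH3, heavy chains of the inter-alpha inhibitor, were at 1130.0, 2297 and 3091 CPM and 616, 1407 and 999 CPM, with 0 counts in the muscle-rich set. SERPINA1, the main elastase inhibitor of plasma, was at 3331, 2871 and 2755 CPM against 0 counts, and SERPINA3-1, another protease inhibitor of this family, was at 4444, 3980.3 and 7396 CPM against 0 counts. SERPINA3-1 has close relatives in cattle, so its counts may be shared with them.

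Complement genes, whose products mark and lyse microbes, were also higher in the liver-rich libraries. Of 20 listed, 18 were in the table, and the 17 that were measurable were all higher in the liver-rich libraries, with a median log2 difference of 9.96. C3, on which the pathways of complement meet, was at 14534, 25479.6 and 24512 CPM against 3.03, 0.75 and 2.32 CPM. CFB, the serine protease of the alternative pathway, was at 4207, 4577 and 5805 CPM against 0, 0.75 and 0.772 CPM. C9 and C5, parts of the lytic pore pathway, were at 2221, 2210.1 and 3314 CPM and 1639, 2153 and 1877 CPM against 0 counts in the muscle-rich set. The smallest differences were those of C7, at 69.2, 211 and 438 CPM against 14.4, 12.8 and 10.8 CPM, and of MASP1, a protease of the lectin pathway, at 81.6, 169 and 153 CPM against 18.964, 15.8 and 21.6 CPM.

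Acute phase genes, which the liver raises in inflammation, numbered 15, of which 12 were in the table and 9 measurable, all 9 of them higher in the liver-rich libraries. HP, which binds free hemoglobin, was at 717, 17798 and 16893 CPM against 0, 0 and 0.772 CPM, and it was more than an order of magnitude lower in the senescent-labelled replicate 2 than in the other 2 liver-rich libraries. CRP, C-reactive protein, was at 1804, 2154 and 2168 CPM against 0 counts, at least 2686-fold higher. FGL1, a fibrinogen-like protein, was at 968, 1019 and 2126 CPM against 0, 0.75 and 0.772 CPM. ITIH4 was at 1159, 9645 and 9362 CPM against 3.79, 3.00 and 5.41 CPM, low in the same library as HP. HAMP, the hormone hepcidin that limits iron uptake, was at 145, 118 and 61.9 CPM against 0 counts. SAA3 was at 5.36, 83.6 and 20.5 CPM and did not reach the measurable level in all 3 liver-rich libraries.

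Of 19 lipoprotein genes, 17 were in the table and measurable and all 17 were higher in the liver-rich libraries, with a median log2 difference of 8.44. APOB, the scaffold of low density lipoprotein, was at 3062, 2673 and 2421 CPM against 0 counts, at least 3576-fold higher. APOH and APOA2 were at 4759.5, 1937 and 2685 CPM and 2974, 2195 and 2999 CPM against 0 counts, and APOA4 was at 3270.1, 791 and 530.4 CPM against 0 counts. APOA1, the main protein of high density lipoprotein, was at 1992, 737 and 549 CPM against 1.52, 0.75 and 0 CPM. In the order of the libraries, APOA4, APOA1 and APOH were each highest in the senescent-labelled replicate 2, as ALB was. MTTP, which loads lipid onto APOB, was at 334, 278 and 181 CPM against 0 counts.

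Urea cycle and amino acid genes followed. Of 33 listed, 31 were in the table, 29 were measurable and 27 were higher in the liver-rich libraries. CPS1, the first enzyme of the urea cycle, was at 5213, 3262 and 3929.5 CPM against 0 counts, at least 5438-fold higher. OTC and ARG1, later enzymes of the cycle, were at 190.4, 109 and 341 CPM and 282, 477 and 462 CPM, both against 0 counts. ASS1, which is expressed beyond the liver, was at 1744, 1391 and 1937 CPM against 20.5, 18.8 and 19.3 CPM. The amino acid enzymes BHMT, which methylates homocysteine, and MAT1A, which makes S-adenosylmethionine, both had 0 counts in the muscle-rich set. In the liver-rich libraries BHMT was at 200.5, 1456 and 1507 CPM and MAT1A at 291, 795 and 1057 CPM. BHMT and MAT1A were lowest in the senescent-labelled replicate 2. AASS and ALDH4A1, enzymes of lysine and proline breakdown, were not called, at ratios of 1.99 and 3.14.

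Of 16 genes of glucose output and liver sugar metabolism, 15 were in the table, 14 measurable and 12 higher in the liver-rich libraries. G6PC, whose product releases free glucose, was at 411, 288 and 311 CPM against 0 counts, at least 442-fold higher. PCK1, a rate-limiting enzyme of gluconeogenesis, was at 688, 976 and 2019 CPM against 3.03, 1.5006 and 0.772 CPM, and FBP1, which acts later in the same pathway, was at 840.2, 511 and 592 CPM against 0, 2.25 and 0 CPM. Not called were SLC37A4, the carrier of glucose 6-phosphate, at a ratio of 2.24, and PPP1R3C, a glycogen-targeting subunit, at 226, 91.9 and 130.0 CPM against 162, 156 and 171 CPM.

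Genes of bile acids and of drug metabolism also stood on the liver-rich side. Of 16 bile acid genes, 15 were in the table and the 13 measurable ones were all higher in the liver-rich libraries. SLC10A1, which takes bile acids up from blood, was at 536, 479.6 and 703 CPM against 0 counts, at least 754-fold higher. ABCB4 and ABCC2, exporters of the bile canaliculus, were at 476, 347 and 358 CPM and 164, 234 and 224 CPM, against 0, 0 and 1.54 CPM and 0 counts. CYP7A1, the rate-limiting enzyme of bile acid synthesis, had 62, 104 and 205 counts in the liver-rich libraries and 0 in the muscle-rich ones, below the measurable level. Of 31 genes of the cytochrome P450 and drug group, 25 were in the table, 24 measurable and 22 higher in the liver-rich libraries. CYP2E1, which oxidizes ethanol, was at 1269.7, 1029 and 3085 CPM and CYP1A2, which oxidizes caffeine and aromatic amines, at 818, 1619 and 2181 CPM, both against 0 counts. CYP3A5, listed on more than 1 row and therefore uncertain, was at 1999, 1402 and 2893 CPM against 0 counts. The 2 genes of this group that were not called were ALDH2, at a ratio of 2.45, and GSTM1, at 53.3, 66.6 and 366 CPM against 72.8, 82.5 and 75.7 CPM.

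The list of ketone, peroxisome and liver fat genes was mixed. Of 18, all measurable, 11 were higher in the liver-rich and 2 in the muscle-rich libraries, and 4 were higher in the muscle-rich libraries with upper-quartile scaling. ACSM1 and PIPOX, enzymes of medium chain fatty acids and of pipecolic acid, were at 1318, 892 and 1191 CPM and 195, 167 and 166 CPM, against 1.52, 4.50 and 8.50 CPM and 0, 0.75 and 0.772 CPM. Against the list's majority, BDH1, which interconverts the ketone bodies, was at 0.141, 0.0635 and 0 CPM in the liver-rich and 12.1, 15.0 and 12.4 CPM in the muscle-rich libraries. FASN, fatty acid synthase, was at 8.04, 11.4 and 10.6 CPM against 116, 96.0 and 95.8 CPM.

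Transcription factors of hepatocytes were counted in the liver-rich libraries and were at or near 0 counts in the muscle-rich ones for the members named here. Of 17 listed, 15 were in the table and the 13 measurable ones were all higher in the liver-rich libraries, with a median log2 difference of 5.13. HNF4A, a nuclear receptor that drives hepatocyte genes, was at 112, 186 and 102 CPM against 0 counts, at least 176-fold higher. NR1I2 and NR1I3, the receptors that sense foreign compounds, and NR1H4, the bile acid receptor, were at 70.5, 55.9 and 92.2 CPM, 44.1, 57.2 and 77.6 CPM and 45.1, 41.6 and 42.5 CPM, each against 0 counts. FOXA2, FOXA3 and ONECUT1 also had 0 counts in the muscle-rich set, which at that depth allows 0.760 CPM. For members with 0 counts there, the call was fixed once they were measurable.

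Markers of fetal liver were split. Of 11, 8 were in the table and 3 measurable, all 3 higher in the liver-rich libraries: AHSG, fetuin A, at 2132, 431 and 911 CPM against 0 counts, the glypican GPC3 at 287, 236 and 199.7 CPM against 3.79, 2.25 and 3.09 CPM, and the growth factor IGF2 at 1369.8, 2062 and 2015 CPM against 192, 199 and 172 CPM. AFP, the albumin-like protein of fetal liver, had only 4, 2 and 4 counts in the liver-rich libraries and 0 in the muscle-rich ones. Of 15 hepatokine and growth hormone response genes, 14 were in the table, 11 measurable and 10 higher in the liver-rich libraries (9 with RLE and 8 with upper-quartile scaling). IGFBP2 and IGFBP4, which bind insulin-like growth factors, were at 182, 780.4 and 843 CPM and 1391, 1842 and 1750.4 CPM, against 0 counts and 6.83, 11.3 and 6.95 CPM. TFR2, the liver's transferrin receptor, was at 149.8, 159.8 and 214 CPM against 0 counts, and INHBE, an activin subunit, was at 263, 61.6 and 23.1 CPM against 0 counts, most in the senescent-labelled replicate 2. GHR, the growth hormone receptor, was not called, at 244, 125 and 146 CPM against 103, 88.5 and 98.9 CPM.

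Markers of macrophages, endothelium and other cell types that liver holds were also counted. Of 20 macrophage and immune genes, 14 were measurable and all 14 were higher in the liver-rich libraries (12 with RLE and 11 with upper-quartile scaling), and their summed share of counts in the 20-gene list was 0.0972%, 0.164% and 0.226% in the liver-rich libraries, against 0.00990% to 0.0122% in the muscle-rich ones. This was not particular to the liver-rich set. A smaller set of 8 such genes took 0.0647% to 0.149% of counts there and 0.0463% to 0.355% in the Holstein-like libraries outside both sets. CD5L and MARCO, typical of liver macrophages (Kupffer cells), were at 104, 111 and 241 CPM and 24.9, 71.9 and 72.4 CPM, against 0.759, 0 and 0.772 CPM and 0 counts. C1QB and C1QC, made by macrophages, were at 96.6, 147 and 228 CPM and 93.3, 137 and 268 CPM, against 2.28, 0.75 and 0 CPM and 2.28, 0.75 and 3.09 CPM. Of 12 endothelial genes, 11 were measurable and 4 were higher in the liver-rich libraries (3 with RLE or upper-quartile scaling). STAB2, a scavenger receptor of liver sinusoids, was at 74.6, 173 and 149.8 CPM against 0 counts, and LYVE1, a hyaluronan receptor of sinusoids and lymph vessels, was at 40.9, 66.4 and 65.5 CPM against 0, 5.25 and 0.772 CPM. STAB1 and KDR were called at ratios of 5.44 and 4.12. The general endothelial genes PECAM1 and VWF were not called, at 26.5, 53.4 and 58.9 CPM against 47.8, 43.5 and 52.5 CPM and 18.3, 56.5 and 64.5 CPM against 72.1, 62.3 and 68.7 CPM.

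Stellate cell markers, which mark the vitamin A storing cells of liver, counted 10, with 6 measurable, 5 of these higher in the liver-rich libraries (4 with upper-quartile scaling, 6 with total counts). LRAT, HGF, BMP10 and PTH1R of this list were not measurable with TMM scaling. NGFR, a neurotrophin receptor, was at 43.2, 28.4 and 59.0 CPM against 0.759, 0.75 and 0.772 CPM, RELN, the secreted protein reelin, at 78.4, 70.5 and 90.7 CPM against 0, 8.25 and 1.54 CPM, and the lectin COLEC11 at 24.8, 20.4 and 29.5 CPM against 0 counts. DES, the intermediate filament desmin, went the other way, with 28.2, 38.6 and 29.5 CPM in the liver-rich and 4521, 4676 and 4682 CPM in the muscle-rich libraries, and it is also the desmin of muscle fibres. Of 11 bile duct and epithelial genes, 10 were in the table and the 3 measurable ones were higher in the liver-rich libraries (5 without senescent-labelled replicate 2). KRT7, KRT19, SOX9, SPP1, CFTR, CLDN4 and MUC1 of this list were in the table but not measurable over the full sets. KRT18 and KRT8, the keratins of hepatocytes as well as ducts, were at 176, 166 and 171 CPM and 54.2, 159 and 147 CPM, against 0, 0.75 and 0 CPM and 0 counts, and EPCAM was at 18.6, 14.1 and 12.7 CPM. Of the heart list GATA4, a transcription factor shared with liver, was at 29.5, 23.3 and 19.2 CPM against 0 counts. Of the red blood cell list only CA2 was measurable, and it was not called. HBA, a globin listed on more than 1 row, was at 4.37, 9.83 and 7.55 CPM in the liver-rich libraries and HBB, another globin, had 12, 0 and 2 counts there, and both had 0 counts in the muscle-rich libraries. The part of these other cell types in the levels of shared genes was not tested.

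On the muscle side the sarcomere came first. Of 19 muscle myosin genes, 16 were in the table, 14 measurable and all 14 higher in the muscle-rich libraries, with a median log2 difference of -14.31. MYH2, the heavy chain of fast oxidative fibres, was at 0, 0 and 0.325 CPM in the liver-rich and 9093, 8976 and 9139 CPM in the muscle-rich libraries. The light chains MYLPF and MYL1 of fast fibres were at 8400.2, 8438 and 8587 CPM and 4925, 4822 and 4928 CPM in the muscle-rich libraries, with 0 to 0.406 CPM and 0 to 0.0705 CPM in the liver-rich ones. MYBPC2 and MYBPC1, the fast and slow myosin binding proteins C, were at 9995, 9922 and 9679 CPM and 6534, 6594 and 6505 CPM, against 0.141, 0.698 and 0.974 CPM and 0.0705, 0.127 and 0.487 CPM. The heavy chain symbols MYH3, MYH8 and MYH4 were not found in the table as used here.

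Of 17 thin filament genes, all were in the table, 16 were measurable and all 16 were higher in the muscle-rich libraries. ACTA1, skeletal actin, was at 60935, 62381 and 61818 CPM against 0.141, 0 and 0.162 CPM. NEB, the ruler of the thin filament, was at 18437, 17914 and 17769.7 CPM against 0, 0.127 and 0.406 CPM. The troponins of fast fibres, TNNI2 and TNNC2, which carry the calcium switch, were at 6991, 6890.5 and 6973 CPM and 5067, 5024 and 4823 CPM, against 0, 0 and 0.162 CPM and 0, 0.0635 and 0.162 CPM. The smallest differences were those of TPM3 and CAPZA2, which other cells use too, at log2 differences of -3.28 and -3.04.

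Z-disc and scaffold genes, which anchor the filaments, counted 23, with 19 in the table and measurable and all 19 higher in the muscle-rich libraries. TTN was at 59308, 57836 and 57968 CPM against 0.212, 0.508 and 2.60 CPM. MYOT and LDB3, which bind alpha-actinin, were at 2791, 2733 and 2777 CPM and 2096, 1941 and 2039 CPM, against 0, 0 and 0.0812 CPM and 0.141, 0.127 and 0 CPM, and ACTN3, the alpha-actinin of fast fibres, was at 5169.5, 5303 and 5379 CPM against 0.353, 0.317 and 0.406 CPM. Of 24 genes of calcium handling and excitation, 23 were in the table, 20 measurable and 19 higher in the muscle-rich libraries. ATP2A1, the calcium pump of fast fibres, was at 20715, 20725 and 20833 CPM against 0.0705, 0.317 and 0.162 CPM. RYR1, the calcium release channel, was at 11632, 11534 and 11673 CPM against 0.494, 2.60 and 3.00 CPM, and CACNA1S, the voltage sensor that opens it, was at 566, 569 and 562 CPM against 0 counts, at least 7963-fold higher. MYLK2, the light chain kinase of skeletal muscle, was at 1209, 1229.7 and 1246 CPM against 0 counts.

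Markers of fat cells and of vessel walls were mixed. Of 9 adipocyte genes, 6 were in the table and 4 measurable, and ADIPOQ, PLIN4 and LPL were higher in the muscle-rich libraries while CFD was higher in the liver-rich ones. ADIPOQ, the fat cell hormone adiponectin, was at 18.964, 36.8 and 21.6 CPM against 0, 0 and 0.162 CPM, and LPL, lipoprotein lipase, which muscle fibres also make, was at 126, 122 and 122 CPM against 6.35, 14.8 and 17.5 CPM. Of 10 smooth muscle and pericyte genes, 9 were measurable, 2, SYNM and CSPG4, were higher in the muscle-rich libraries and 7 were not called.

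At the nerve contact, the adult and fetal acetylcholine receptor subunits differed in what could be measured. CHRNA1 and CHRNB1, present in both receptor forms, were at 36.4, 40.5 and 39.4 CPM and 52.3, 42.8 and 55.6 CPM in the muscle-rich libraries, against 0.0705, 0 and 0.0812 CPM and 4.09, 2.86 and 4.06 CPM in the liver-rich ones. CHRNE, the adult subunit, was at 25.8, 29.3 and 27.8 CPM against 13.4, 11.8 and 4.06 CPM, non-overlapping at a ratio of 2.83, which left it without a call. CHRNG, the fetal subunit, had 1 count over the 3 muscle-rich libraries.

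Both fast and slow fibre genes were present in all 3 muscle-rich libraries. Of 15 fast fibre genes, 14 were in the table and the 13 measurable ones were all higher there, and of 15 slow and embryonic fibre genes, 13 were in the table and the 11 measurable ones were all higher there. The listed fast genes took 13.8% of counts in each muscle-rich library and the listed slow and embryonic ones 2.53%, 2.49% and 2.53%. MYL4 and the fetal receptor subunit CHRNG were in the slow and embryonic list but not measurable. The share of that list is therefore not a measure of embryonic fibre genes. Among the slow genes, MYL2 was at 3660.0, 3782 and 3837 CPM, TNNC1 at 2194, 2130.0 and 2159.8 CPM and TNNI1 at 763, 751 and 657 CPM, against 0.282, 0 and 0.162 CPM, 0.282, 0 and 0 CPM and 0 counts.

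Muscle energy genes had a median log2 difference of -6.85. Of 31, 30 were in the table and measurable, and 29 were higher in the muscle-rich libraries. MB, myoglobin, was at 13069.9, 13257 and 13161 CPM against 0.282, 0.0635 and 0.65 CPM. PYGM, the glycogen phosphorylase of muscle, was at 11940.4, 11860.3 and 11589 CPM against 0.0705, 0.254 and 0.162 CPM. PGAM2, a glycolytic mutase, was at 1711, 1759 and 1714 CPM against 0 counts, at least 24337-fold higher, and UCP3, a mitochondrial carrier of muscle, was at 713, 735 and 746 CPM against 0 counts. PPARGC1A, the coactivator of mitochondrial genes, was the 1 measurable gene of this list without a call, at 18.6, 28.3 and 14.5 CPM in the liver-rich and 15.2, 16.5 and 26.3 CPM in the muscle-rich libraries, and there the sets overlapped.

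Of 22 myogenic regulators and muscle growth genes, 20 were in the table and 16 measurable, with 15 higher in the muscle-rich libraries. MYOD1 and MYOG, the factors that set muscle fate and differentiation, were at 47.0, 42.0 and 45.6 CPM and 18.2, 17.3 and 23.2 CPM against 0 counts. MYF6, the member of that family most typical of mature fibres, was at 98.6, 87.0 and 85.7 CPM against 0.0705, 0.0635 and 0.0812 CPM. MSTN, myostatin, which restrains muscle growth, was at 34.1, 39.0 and 35.5 CPM against 0 counts. PAX7 and MYF5, which mark the satellite cells of muscle, had 2, 0 and 1 counts and 1, 0 and 1 counts in the muscle-rich libraries. CAPN3, a calcium-dependent protease of muscle, was at 1229.6, 1217 and 1214 CPM against 0.141, 0.317 and 0.244 CPM, and SMYD1, a methyltransferase of the sarcomere, was at 426, 413 and 449.6 CPM against 0, 0.0635 and 0 CPM. Against the majority, IGF2 was higher in the liver-rich set.

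The dystrophin complex, which ties the cytoskeleton to the matrix, was measurable for all 15 listed genes and 11 were higher in the muscle-rich libraries. SGCA, a sarcoglycan of striated muscle, was at 164, 167 and 141 CPM against 0.141, 0.317 and 0.0812 CPM. NOS1 and CAV3, bound to the complex in muscle, were at 41.7, 51.8 and 34.8 CPM and 31.1, 24.0 and 31.7 CPM, against 0, 0 and 0.162 CPM and 0, 0.0635 and 0 CPM. DMD, dystrophin itself, was not called, at 39.3, 37.8 and 30.4 CPM in the liver-rich and 47.0, 37.5 and 40.9 CPM in the muscle-rich libraries, with overlapping sets. UTRN, the related utrophin found in many cell types, was at 72.1, 188 and 99.8 CPM against 35.7, 39.8 and 27.0 CPM, higher in the liver-rich set at a ratio of 3.51.

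**Figure D3:**
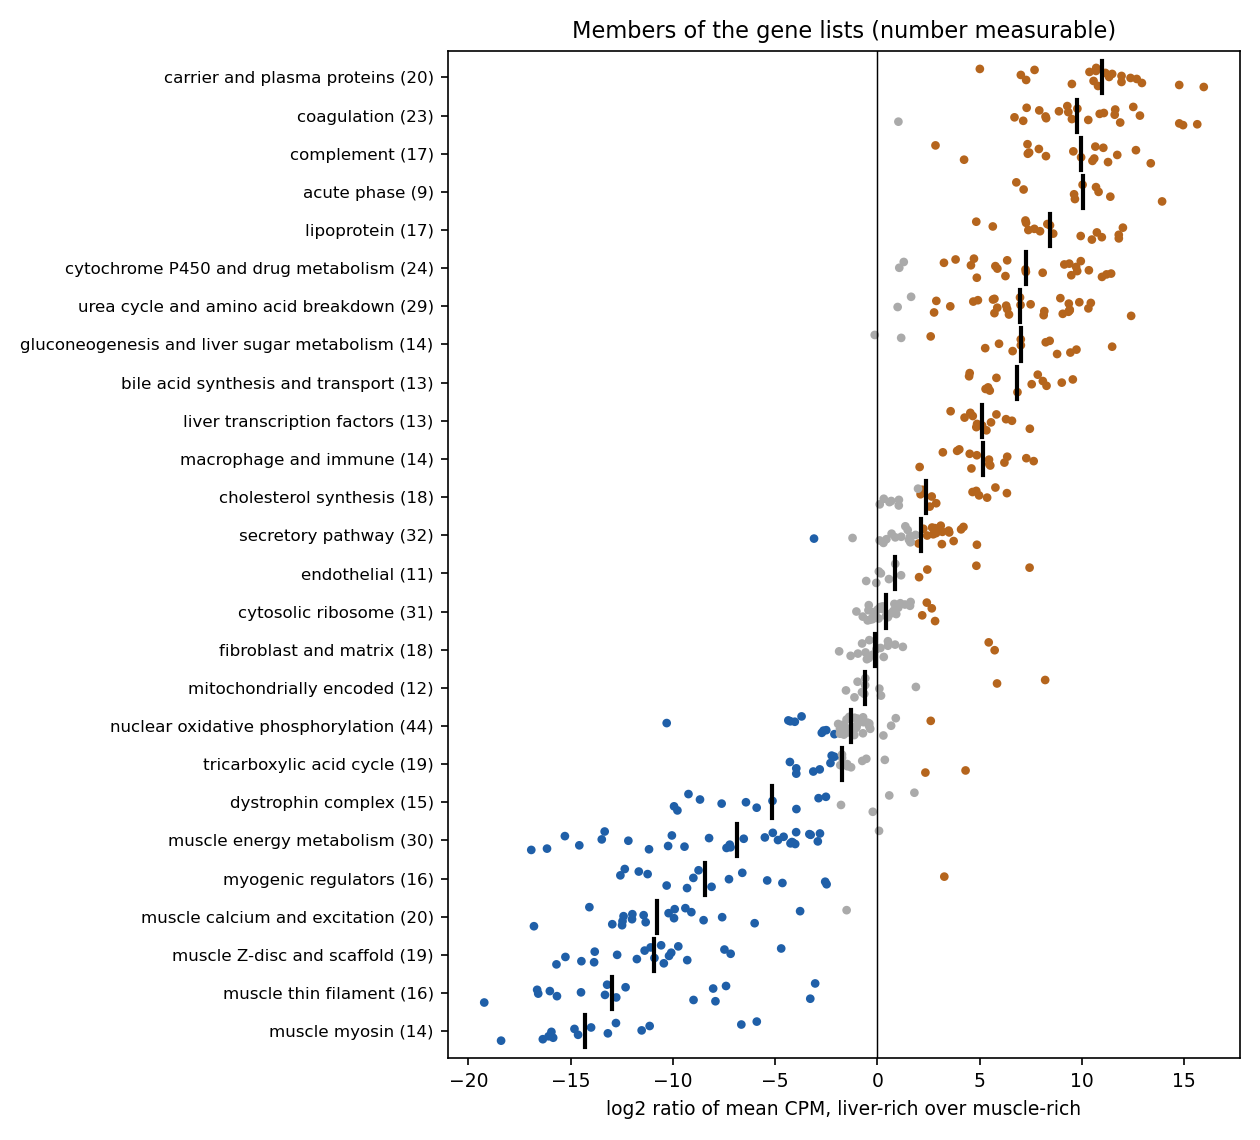
Log2 ratio of mean CPM, liver-rich over muscle-rich (horizontal axis), for each measurable member of 26 gene lists, with 1 point per gene, orange where higher in the liver-rich set, blue where higher in the muscle-rich set and grey where neither, and a black bar at the median of each list. Medians run from 10.97 for carrier and plasma proteins to -14.31 for muscle myosin, and the ribosome and fibroblast lists lie near 0.

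Paired liver and muscle forms of the same protein were compared side by side. Of 32 pairs listed, both forms were in the table for 30. In 18 of these the liver form was higher in the liver-rich libraries and the muscle form in the muscle-rich libraries, in 9 only the muscle form and in 2 only the liver form was higher in its own set, and in 1 neither was.

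The pairs of glycogen and glucose metabolism were among the most distant. PYGL, the liver glycogen phosphorylase, was at 719.6 ± 83.8 CPM in the liver-rich and 5.57 ± 1.11 CPM in the muscle-rich libraries (mean ± SD, n = 3), while PYGM was at 0.162 ± 0.0916 and 11797 ± 184 CPM. GYS2, the liver glycogen synthase, was at 261 ± 177 CPM against 0 counts, and GYS1, the muscle form, was at 9.49 ± 3.84 CPM against 878 ± 33.2 CPM. ALDOA, the aldolase of muscle, was at 106 ± 22.6 CPM against 15782 ± 322 CPM. SLC2A2, the glucose transporter of hepatocytes, was at 229 ± 87.4 CPM against 0 counts, and SLC2A4, the insulin-responsive one of muscle, was at 0.881 ± 0.219 CPM against 39.8 ± 5.85 CPM. In fructose bisphosphatase both forms were called in their own set, but FBP2, the muscle form, was at 0.282, 50.8 and 39.1 CPM in the liver-rich libraries, nearly missing from senescent-labelled replicate 2 and present in the other 2.

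Other pairs carried the same split into lipid, mitochondrial and translation genes. FABP1, the fatty acid binding protein of liver, was at 477 ± 452 CPM against 0 counts, and FABP3, that of muscle, was at 0.183 ± 0.125 CPM against 194 ± 8.39 CPM. CPT1A and CPT1B, which let fatty acids into mitochondria, had log2 differences of 3.85 and -2.80. The cytochrome oxidase subunits COX6A1, COX7A2 and COX8A, found in most tissues, had log2 differences of 3.33, 4.53 and 3.25, and their muscle forms COX6A2, COX7A1 and COX8B had -10.30, -4.03 and -4.35. EEF1A1, the general elongation factor of translation, was at 3598 ± 1165 CPM against 341 ± 10.3 CPM, and EEF1A2, the form of muscle and nerve, was at 0.141 ± 0.0627 CPM against 3018 ± 28.1 CPM. EEF1A1 and PGAM1 are listed on more than 1 row, so their levels are uncertain.

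Some pairs did not split. ATP2A2, the calcium pump that most tissues use and that slow fibres share, was higher in the muscle-rich libraries, at 133 ± 21.4 CPM against 1886 ± 54.1 CPM. MAT2A, the methionine adenosyltransferase outside the liver, was higher in the liver-rich libraries, at 1620.1, 421 and 421 CPM against 49.3, 48.8 and 49.4 CPM, most in senescent-labelled replicate 2, where MAT1A was lowest. PDK2 was nearly level between the sets at a ratio of 1.07, while PDK4, which spares glucose in fasting muscle, was at 37.8, 50.8 and 91.6 CPM against 2048, 2120.3 and 2059 CPM. LDHB, PFKL and ACACA were higher in the liver-rich set but below a ratio of 4, at 3.26, 3.34 and 1.72. GPD1, named here for liver, was higher in the muscle-rich set at a ratio of 3.05, without a call.

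**Figure D4:**
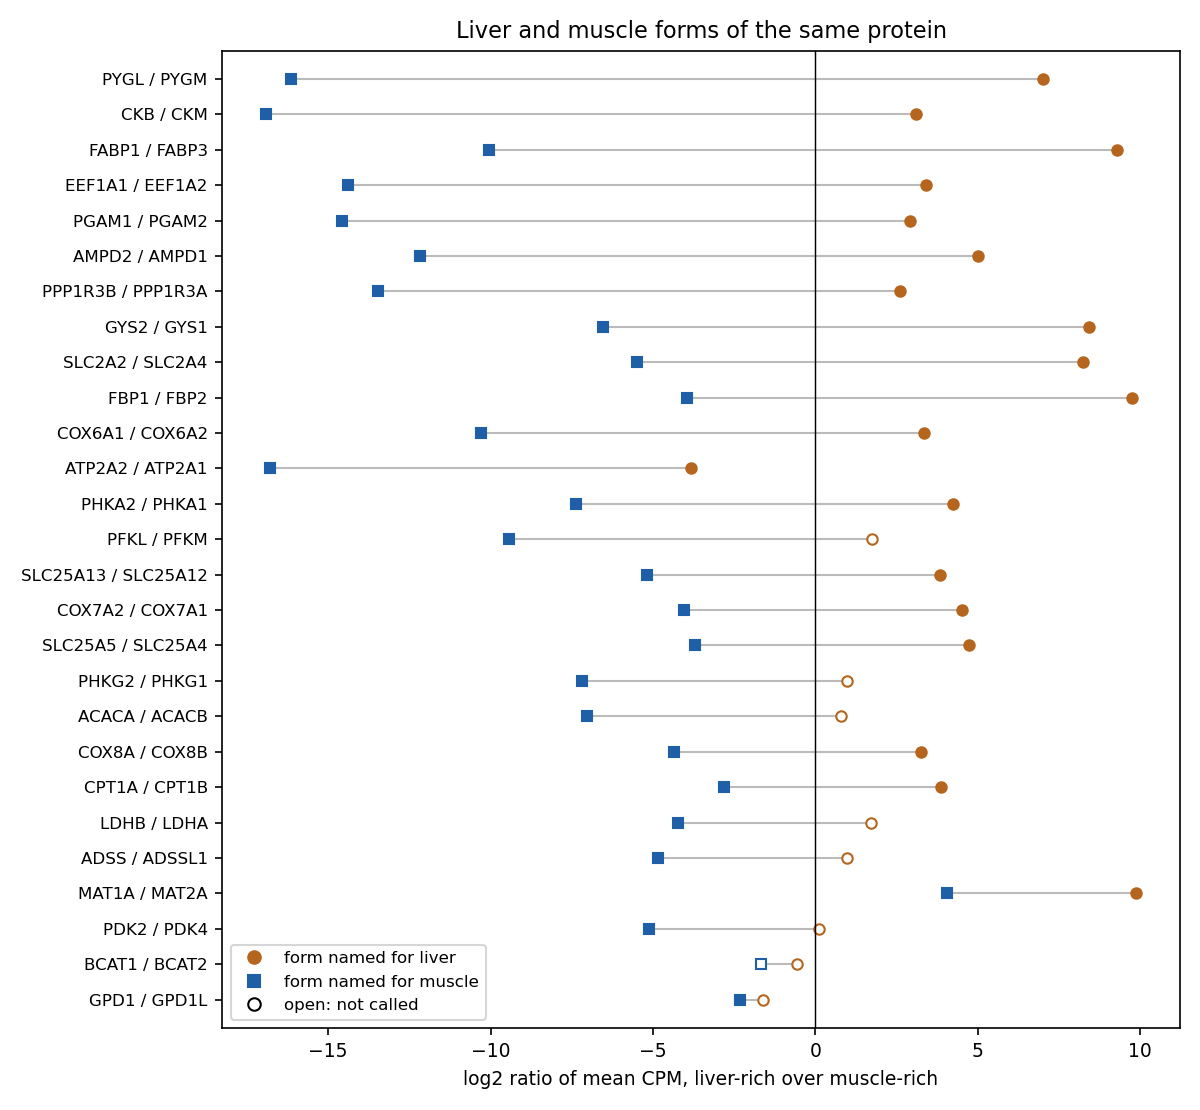
Log2 ratio of mean CPM, liver-rich over muscle-rich (horizontal axis), for the liver form (circle) and the muscle form (square) of 27 protein pairs, with open symbols where a gene was not called. Squares lie left of 0 except that of MAT2A, and circles lie right of 0 except those of ATP2A2, BCAT1 and GPD1.

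Machinery that both tissues use had smaller median differences than the liver and muscle lists above, but not always fewer calls. Of 32 cytosolic ribosome genes, 31 were measurable, 4 were higher in the liver-rich libraries (3 with upper-quartile scaling) and none in the muscle-rich ones, with a median log2 difference of 0.42. These 4 were RPL3, RPS6, RPS27A and RPL19, and RPL3 and RPS6 are listed on more than 1 row. RPS3 was at 539, 218 and 413 CPM against 359, 369.9 and 431 CPM. Of 44 nuclear genes of oxidative phosphorylation, all measurable, 9 were higher in the muscle-rich libraries (14 with upper-quartile scaling) and 1 in the liver-rich ones, with a median of -1.31. NDUFB5 and NDUFS3 of complex I had log2 differences of -2.72 and -2.63, and SDHA of complex II had -0.35. Of 20 tricarboxylic acid cycle genes, 19 were measurable, with 8 higher in the muscle-rich libraries (11 with upper-quartile scaling, 6 with total counts) and 2 in the liver-rich ones. Their median was -1.73. The share higher in the muscle-rich libraries was 42.1% in this list and 20.5% in oxidative phosphorylation, beside 12.5% of all measurable genes. The oxidative phosphorylation list holds the muscle forms COX6A2, COX7A1, COX8B and SLC25A4, all among its muscle-rich calls. Their partners COX6A1, COX7A2, COX8A and SLC25A5, all higher in the liver-rich libraries, are not in it. Its share therefore depends on which forms were listed. CS, citrate synthase, was at 37.2, 37.3 and 25.8 CPM against 538, 503 and 525 CPM, and SUCLA2, a succinyl-CoA ligase subunit, at 22.999, 15.7 and 16.7 CPM against 363, 371 and 338 CPM. The cytosolic enzymes IDH1 and ACO1 went the other way, with log2 differences of 4.31 and 2.35.

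The secretory pathway, by which proteins leave the cell, leaned to the liver-rich side. Of 35 genes, 32 were measurable, 17 were higher in the liver-rich libraries (15 with upper-quartile scaling) and 1 in the muscle-rich ones, with a median log2 difference of 2.13. SEC61A1, the pore of the endoplasmic reticulum, was at 210.3, 197 and 169 CPM against 5.31, 8.25 and 6.18 CPM. HSP90B1, a chaperone there, was at 1505, 1794 and 988 CPM against 85.0, 84.8 and 81.1 CPM, and P4HB, which forms disulfide bonds, was at 2105, 1608 and 2286 CPM against 187, 164 and 174 CPM. SRP9, a protein of the signal recognition particle, was higher in the muscle-rich set, at 2.61, 2.73 and 2.92 CPM against 22.0, 27.8 and 20.9 CPM. Of 20 cholesterol synthesis genes, 18 were measurable and 11 were higher in the liver-rich libraries (9 with upper-quartile scaling). NSDHL, a late enzyme of the pathway, was at 84.5, 61.2 and 62.7 CPM against 1.52, 0.75 and 1.54 CPM.

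Iron and copper genes ran both ways. Of 17, 15 were measurable, with 10 higher in the liver-rich and 2 in the muscle-rich libraries. Ceruloplasmin (CP), the copper oxidase of plasma, was at 3309.9, 3229 and 2406 CPM against 0 counts, at least 3922-fold higher. The metallothionein MT1A, which binds zinc and copper, was at 54.9, 1225 and 1113 CPM against 0 counts, low in senescent-labelled replicate 2. TFRC, the general transferrin receptor, was higher in the muscle-rich set at 24.6, 24.2 and 34.3 CPM against 466, 457 and 460.4 CPM, and so was HFE2, hemojuvelin, a protein of liver and muscle, at 33.2, 18.9 and 17.9 CPM against 231, 182 and 199 CPM.

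Stress and early response genes were mixed. Of 15 immediate early genes, 13 were measurable, with 5 higher in the muscle-rich libraries and 1, EGR1, in the liver-rich ones (0 with upper-quartile scaling, with the liver-rich libraries thinned or without senescent-labelled replicate 3). NR4A1, a nuclear receptor induced within minutes by stimuli, was at 4.59, 12.5 and 14.5 CPM against 294, 284 and 275 CPM. FOS and ATF3, stress-induced transcription factors, were at 26.9, 47.4 and 25.3 CPM and 8.25, 9.01 and 8.12 CPM in the liver-rich libraries, against 212, 209 and 212 CPM and 81.2, 86.3 and 98.9 CPM. EGR1 was at 24.1, 159 and 41.9 CPM against 14.4, 15.0 and 20.1 CPM, and the senescent-labelled replicate 3 alone lay above 100 CPM. Of 19 stress and heat shock genes, 17 were measurable, with 6 higher in the muscle-rich libraries, among them CRYAB and HSPB6, small heat shock proteins of muscle, at log2 differences of -6.29 and -6.02. TRIB3 and DDIT3, induced by stress of the endoplasmic reticulum, were higher in the liver-rich set at 29.7, 18.5 and 15.5 CPM and 12.8, 15.4 and 12.7 CPM, against 0 counts and 1.52, 2.25 and 1.54 CPM. Of 20 antioxidant genes, 17 were measurable, with 7 higher in the liver-rich (4 with upper-quartile scaling) and 3 in the muscle-rich libraries (0 with total counts and 1 without senescent-labelled replicate 3). CAT, catalase, was at 2901, 1832 and 4660.3 CPM against 323, 308 and 358 CPM. The 3 on the muscle-rich side were the peroxiredoxins PRDX1 and PRDX2 and the quinone reductase NQO1, with log2 differences of -2.07, -2.10 and -2.22.

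Some small structural RNAs, 2 genes without a name and 2 mitochondrially encoded genes also differed between the sets. They were singled out after their values were seen and are given as CPM of total counts. The summed 7SK rows, a small nuclear RNA, were at 171 to 196 CPM in the muscle-rich libraries and 0.859 to 10.3 CPM in the other 15 libraries of the series. The summed rows of the signal recognition particle RNA were at 751 to 801 CPM against 0.429 to 24.8 CPM. The 2 genes without a name among the leading genes of the muscle-rich set, ENSBTAG00000043570 and ENSBTAG00000043567, were at 44763 to 44826 CPM and 18864 to 19247 CPM, against 502 to 7096 CPM and 60.1 to 2617 CPM. Of 26 mitochondrially encoded symbols, 12 were in the table and measurable and 2 were called, both higher in the liver-rich set: MT-ATP8, at 353, 209 and 344 CPM against 0, 0.75 and 2.32 CPM, and MT-ND4L, at 379, 79.6 and 291 CPM against 6.83, 0.75 and 5.41 CPM. Each of them overlaps a neighbour on the mitochondrial genome, and the neighbours ATP6 and MT-ND4 were not called, at ratios of 1.07 and 1.51. The muscle-rich libraries also had the fewest counts of the 6. With the liver-rich libraries thinned to the smallest muscle-rich total, 1687 genes were higher in the liver-rich and 1141 in the muscle-rich set, and 1659 and 1024 of these were among those called at full depth. The part of these RNAs in the other differences was not tested.

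The liver-rich libraries were not copies of each other, and their order did not follow their labels. Across genes at the measurable level in both libraries, the correlation of log2 CPM was 0.947 between senescent-labelled replicate 3 and immortalized-labelled replicate 1, and 0.917 and 0.903 for the 2 comparisons with senescent-labelled replicate 2. These correlations are across genes within pairs of libraries and genes are not independent replicates. Of 8726 genes compared, senescent-labelled replicate 2 lay at least 4 times above both others in 26 genes (0.298%) and at least 4 times below both in 82 (0.94%). Senescent-labelled replicate 3 lay above in 6 (0.0688%) and below in 8 (0.0917%). Immortalized-labelled replicate 1 lay above in 30 (0.344%) and below in 10 (0.115%). With 1 library against 2, these are differences between libraries and not between stages.

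Genes furthest from the other 2 libraries are named for each library, up to 6 in each direction. For senescent-labelled replicate 2 those on the high side included enzymes of fatty acids. FADS2, a fatty acid desaturase, was at 173, 7.68 and 12.8 CPM and ELOVL5, a fatty acid elongase, at 2029, 397 and 315 CPM. DIO1, which activates thyroid hormone, was at 83.0, 13.6 and 13.2 CPM, AK4, a mitochondrial adenylate kinase, at 53.5, 7.36 and 2.52 CPM, and UGP2, which makes UDP-glucose for glycogen, at 1438, 302 and 213 CPM. M6PRBP1, a lipid droplet coat protein, was at 306, 48.3 and 63.1 CPM. On the low side, GPX3, the glutathione peroxidase of plasma, was at 11.6, 2446 and 3383 CPM. HP and MT1A, given above, and GSTM2, a glutathione transferase at 8.11, 118 and 192 CPM, were low in the same library. OAS1Z, of the interferon-induced OAS family, was at 1.98, 114 and 53.4 CPM. Because of this library GPX3 was not called between the sets, with 19.7, 27.0 and 19.3 CPM in the muscle-rich libraries.

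Few genes set senescent-labelled replicate 3 apart. SAA3, an acute phase serum amyloid A, was at 5.36, 83.6 and 20.5 CPM and so highest there. MT-ND3, a mitochondrially encoded complex I subunit, was at 2938, 434 and 2176 CPM and IGFALS, the liver protein that keeps insulin-like growth factors in blood, at 59.7, 9.58 and 39.5 CPM, both lowest in that library.

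In immortalized-labelled replicate 1, S100A12, a calcium-binding protein of neutrophils, was at 1.98, 3.68 and 58.7 CPM, and S100A2 at 1.48, 12.2 and 56.3 CPM. ALAS1, the rate-limiting enzyme of heme synthesis, was at 30.0, 77.1 and 405 CPM, and GSTM1 was at 53.3, 66.6 and 366 CPM. COL1A2, a chain of type I collagen, was at 25.5, 46.1 and 219 CPM and MUPCDH, a protocadherin, at 5.01, 11.7 and 52.2 CPM. Below both others were GIMAP4, a lymphocyte GTPase, at 117, 63.7 and 9.17 CPM, and LAMB3, a laminin chain of basement membranes, at 664, 147 and 32.5 CPM.

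**Figure D5:**
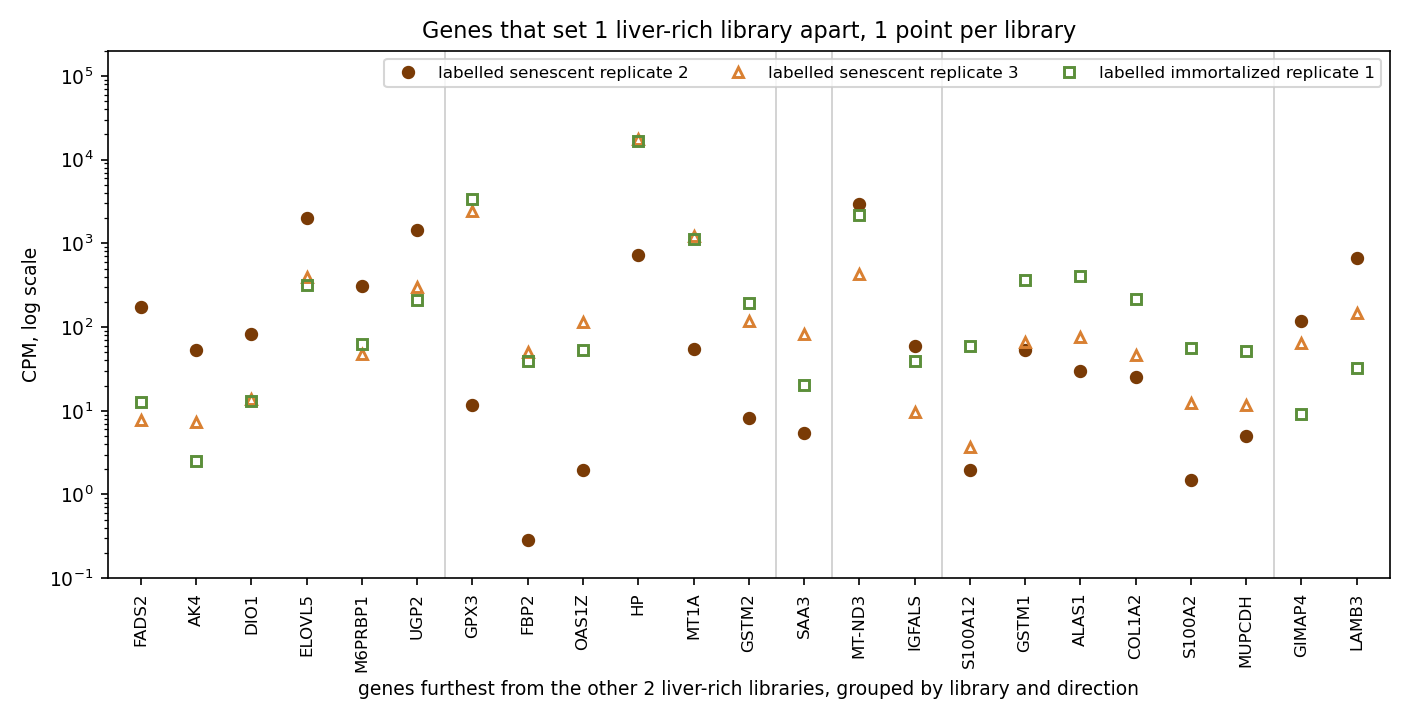
CPM (vertical axis, log scale) of the genes furthest from the other 2 libraries in each liver-rich library, with 1 symbol per library and grey lines between libraries and directions. GPX3, HP and MT1A are lowest and FADS2 and ELOVL5 highest in senescent-labelled replicate 2, and COL1A2 and ALAS1 are highest in immortalized-labelled replicate 1.

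Whole gene lists differed between the liver-rich libraries too. The median deviation of a list from its mean log2 level over the 3 libraries, in the same order of libraries, was -0.65, 0.21 and 0.73 for the 9 measurable acute phase genes. It was -0.62, -0.05 and 0.63 for the 14 macrophage and immune genes and -0.96, 0.07 and 0.79 for 16 fibroblast and matrix genes, so the 3 lists had the same order. COL3A1, a fibrillar collagen, was at 93.6, 146 and 534 CPM, in that order too. CD163, a macrophage scavenger receptor, was at 77.5, 151 and 145 CPM, lowest in senescent-labelled replicate 2 but not highest in immortalized-labelled replicate 1. Ribosome and mitochondrially encoded genes had another order, with 0.49, -0.66 and 0.16 and with 0.60, -0.58 and 0.18, lowest in senescent-labelled replicate 3. Lipoprotein genes were at 0.37, -0.40 and 0.06 and P450 and drug genes at -0.04, -0.37 and 0.49.

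Genes by which cultured fibroblasts are known were mostly below the level of the Simmental-like libraries. In CPM of total counts, 18 of the 21 fibroblast and matrix genes were lower in all 6 libraries than in the lowest Simmental-like library, and the exceptions were FN1, POSTN and PDGFRB. Between the sets, of these 21 genes, 18 were measurable, 2 were higher in the liver-rich libraries and none in the muscle-rich ones (1 with upper-quartile scaling), and the median log2 difference was -0.13 (0.14 with total counts). The 2 were FN1, which hepatocytes also secrete, at 2500.0, 4898 and 3099 CPM against 66.8, 63.8 and 66.4 CPM, and POSTN, periostin, at 32.0, 15.5 and 51.9 CPM against 0 counts. On the scale of total counts, FN1 was at 2745 to 5791 CPM in the liver-rich libraries, 57.9 to 60.4 in the muscle-rich libraries and 766 to 2937 in the Simmental-like libraries. POSTN was at 18.4 to 53.6, 0 and 0.449 to 12.1 CPM in the same order. In CPM of total counts, COL1A1 was at 16.6 to 187 in the liver-rich libraries, 101 to 117 in the muscle-rich libraries and 13675 to 28537 in the Simmental-like libraries. VIM, vimentin, was at 57.1 to 173, 101 to 106 and 11357 to 24248 in the same order.

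Genes of dividing cells were near the limit of the counts. Of 21 proliferation genes, all in the table, only PCNA was measurable, at 15.2, 9.07 and 12.6 CPM against 18.2, 18.006 and 15.4 CPM, and it was not called. MKI67, which marks cycling cells, was at 2.48 to 4.65 CPM of total counts in the liver-rich libraries, 0.685 to 2.11 in the muscle-rich and 94.8 to 489 in the Simmental-like libraries. TOP2A, a topoisomerase of dividing cells, was at 2.48 to 3.86, 0 and 107 to 472 in the same order.

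Of 8 genes tied to senescence and growth, the subject of the labels, 3 were measurable and none of these was called between the sets. The others could not be called at this depth. CDKN1A, a cyclin-dependent kinase inhibitor, was at 91.5, 35.1 and 20.3 CPM in the liver-rich and 30.3, 30.8 and 30.9 CPM in the muscle-rich libraries, and the sets overlapped. MYC, a growth factor-induced transcription factor, was at 6.42, 5.33 and 7.63 CPM against 13.7, 13.5 and 17.0 CPM, non-overlapping at a ratio of 2.28. CDKN2B, another kinase inhibitor, was at 0.635, 1.97 and 2.52 CPM and LMNB1, lamin B1, at 3.74, 4.06 and 3.57 CPM, below the measurable level, against 0 and 1 counts over the muscle-rich set. TERT, the catalytic part of telomerase, was at 0, 0.508 and 0.0812 CPM against 0 counts, and IL6, an inflammatory cytokine listed on more than 1 row, at 0, 0.127 and 0 CPM against 0 counts.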

How the data were processed

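Total RNA was extracted with the RNeasy mini kit, and libraries were made with an NEBNext Ultra II RNA kit and read on a NextSeq, per the labels' protocols. The authors deposited 1 table of estimated counts per gene, which the deposited file's own name calls merged salmon gene counts, on the bovine build UMD3.1 per the submitters' processing notes. For the salmon version, annotation release and strand setting: not given in the sources used here. Expected counts were rounded to whole numbers and scaled by TMM over the 6 libraries (edgeR 4.0.16, R 4.3.3), then summarised in Python 3.11.15. The members and gene lists were chosen with earlier results of these data known, so no test was run and no p-value is given. Symbols on several rows were read from the row with most counts. Named genes are the markers, the 12 largest ratios and 8 largest shares of a set, up to 4 called members of a list with the largest differences, isoform pairs, the genes furthest apart within the liver-rich set, and the senescence list. Other genes were named for their known role after their values were seen. In simulated data for this comparison, 100 of 100 genes put in at 8-fold, 0 of 100 at 2-fold and 0 of 7684 unchanged genes were called. A 2-fold change lies below the ratio of 4 that a call needs. The simulation used a common pooled profile and equal noise in every library. It therefore did not cover the wider spread of the liver-rich libraries or so large a share of changed genes. Alternatives covered scaling, filters, ratios, depth and left-out libraries. Some named genes are not reported here.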

Additional observations from a re-analysis of the deposited data

How the results depend on the processing

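The counts below were recomputed with other scalings, filters, ratios and depths and with each library left out. No paired analysis was possible because the result comes from no test, and the labels state no pairing across these sets, of which the liver-rich one mixes stages. Against 1922 genes higher in the liver-rich and 1032 in the muscle-rich libraries, RLE scaling gave 1788 and 1085, upper-quartile scaling 1536 and 1252, total counts 2299 and 896, no filter 2795 and 1360, and the muscle-rich libraries summed to 1 gave 1810 and 1205. A stricter filter of 50 counts gave 892 genes higher in the liver-rich libraries and 11 pairs with both forms higher in their own set, since fewer genes were kept. A ratio of at least 2 gave 2921 and 1919 genes, and a ratio of at least 16 gave 961 and 469. Leaving out each library gave 1896 to 2093 genes higher in the liver-rich and 1025 to 1072 in the muscle-rich libraries, of which 1835 to 1872 and 996 to 1018 were shared with the full sets. At least 2 times apart within the liver-rich set, senescent-labelled replicate 2 lay above in 257 genes and below in 404, senescent-labelled replicate 3 above in 74 and below in 97, and immortalized-labelled replicate 1 above in 180 and below in 63. Without mitochondrially encoded genes, liver genes took 20.3%, 20.3% and 20.6% of counts in the liver-rich libraries and skeletal muscle genes 26.8% in each muscle-rich library. Of the differences of named genes under these alternatives, 2386 stayed within the spread between libraries and 314 moved further. The 2386 include 225 values with no filter and 225 with the stricter filter, which could not move because a filter does not change a difference. The sign changed in 19 of these values, for the 8 genes AK4, ALAS1, CDKN1A, COL1A2, GSTM1, PDK2, PPARGC1A and UGP2, and for 0 of the genes called between the sets. Called genes had non-overlapping sets and a ratio of at least 4, which left little room for a change of sign. Depth limits the muscle-rich side, where 0 counts over the set allow up to 0.760 CPM.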
